A study of Homo sapiens with 3 samples.

Results

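Transcript levels of 38 genes of glycolysis and of the hypoxia response were examined in 3 keratinocyte lines. The genes were taken by symbol, and all 38 were found among the 55773 gene symbols of the deposited table. They comprise 16 glycolytic enzymes, 6 carriers and regulators of glucose use, 2 hypoxia-inducible factors (HIF1A and EPAS1) and 14 other genes known as targets of these factors. The parent of the lines is HaCaT, human keratinocytes that became immortal spontaneously in culture, and all of them, the control included, express an oncogenic mutant of HRas. The control, HaCaT-Ras (-), carries an empty vector, and the others carry wild-type THG-1 (the protein of the gene TSC22D4) or THG-1 (S264A), in which a serine is replaced by alanine. The cultures were kept in DMEM with serum, and RNA of each line was sequenced as 1 library. The oxygen level, the cell density and whether a line is a clone or a pool were not given in the sources used here.

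Glycolysis converts glucose to pyruvate, and lactate dehydrogenase and a lactate carrier dispose of the pyruvate that does not enter mitochondria. The hypoxia-inducible factors are pairs of an alpha subunit (HIF-1 alpha from HIF1A, HIF-2 alpha from EPAS1) and the partner ARNT. With oxygen present, prolyl hydroxylases encoded by EGLN genes mark the alpha subunits for destruction through the VHL protein. When the subunits persist, the pair binds DNA at the core ACGTG or GCGTG and activates genes for glucose uptake, glycolysis, blood vessel growth, pH control and mitophagy, and its own inhibitors EGLN1 and EGLN3. RAS signalling is known to raise glucose uptake and HIF output at normal oxygen as well. The alpha subunits are controlled mainly as proteins, which RNA sequencing does not measure.

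The sequences before the start of 7 members on which the results turn are shown first, since the members are grouped by a factor that reads DNA. Promoters were taken by symbol from RefSeq (build GRCh38.p14), which matched 34 of 38 members with 65 promoters. The 250 bases before the start are printed 5′ to 3′ on the gene's strand, in lower case, with each ACGTG or GCGTG on either strand in capitals (CACGT and CACGC being the same cores on the other strand). CA9, BNIP3, PGK1 and EGLN3 were lower in the S264A line than in the control.
CA9: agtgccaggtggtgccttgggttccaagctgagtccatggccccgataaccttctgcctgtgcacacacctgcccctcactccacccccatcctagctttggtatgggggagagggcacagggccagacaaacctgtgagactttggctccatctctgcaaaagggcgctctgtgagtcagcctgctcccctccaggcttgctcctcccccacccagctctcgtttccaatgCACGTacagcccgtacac
BNIP3: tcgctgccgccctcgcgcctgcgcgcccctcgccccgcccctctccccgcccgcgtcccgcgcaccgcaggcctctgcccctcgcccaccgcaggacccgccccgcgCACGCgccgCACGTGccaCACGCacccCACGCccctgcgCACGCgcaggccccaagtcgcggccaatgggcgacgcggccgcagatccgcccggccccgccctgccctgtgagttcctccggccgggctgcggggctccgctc
PGK1: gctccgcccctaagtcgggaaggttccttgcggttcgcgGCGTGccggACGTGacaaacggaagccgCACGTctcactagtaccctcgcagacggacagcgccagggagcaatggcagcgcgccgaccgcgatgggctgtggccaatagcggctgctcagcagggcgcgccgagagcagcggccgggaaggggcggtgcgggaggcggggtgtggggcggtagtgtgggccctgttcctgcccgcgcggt
EGLN3: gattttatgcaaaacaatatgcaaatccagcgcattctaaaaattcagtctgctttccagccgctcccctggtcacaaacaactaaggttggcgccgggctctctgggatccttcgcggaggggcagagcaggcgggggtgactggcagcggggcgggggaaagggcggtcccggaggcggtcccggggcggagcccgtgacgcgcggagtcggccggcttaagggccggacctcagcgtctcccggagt
These windows lie at chr9:35673678-35673927, plus strand (CA9), chr10:131981924-131982173, minus strand (BNIP3), chrX:78103998-78104247, plus strand (PGK1) and chr14:33951075-33951324, minus strand (EGLN3). The CA9 window holds 1 core, whose last base lies 14 bases before the start. The BNIP3 window holds 6 matches, of which a pair overlaps in CACGTG, the PGK1 window holds 3, and the EGLN3 window holds 0. ENO2, ADM and EPAS1 had more RNA with wild-type THG-1 than in the control.
ENO2: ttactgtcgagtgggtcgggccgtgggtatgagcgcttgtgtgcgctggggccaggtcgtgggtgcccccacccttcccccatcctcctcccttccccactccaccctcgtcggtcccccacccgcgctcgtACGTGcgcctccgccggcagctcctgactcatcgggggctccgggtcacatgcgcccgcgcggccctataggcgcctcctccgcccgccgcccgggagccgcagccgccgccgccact
ADM: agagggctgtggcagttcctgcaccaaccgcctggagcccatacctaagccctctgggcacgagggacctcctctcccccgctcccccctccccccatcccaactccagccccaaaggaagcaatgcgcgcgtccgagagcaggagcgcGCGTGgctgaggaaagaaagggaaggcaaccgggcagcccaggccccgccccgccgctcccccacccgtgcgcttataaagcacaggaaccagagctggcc
EPAS1: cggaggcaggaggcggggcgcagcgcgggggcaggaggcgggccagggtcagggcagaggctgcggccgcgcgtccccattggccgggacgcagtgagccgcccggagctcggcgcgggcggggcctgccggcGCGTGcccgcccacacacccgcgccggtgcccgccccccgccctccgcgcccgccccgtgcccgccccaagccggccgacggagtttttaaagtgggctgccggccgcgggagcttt
These windows lie at chr12:6914330-6914579, plus strand (ENO2), chr11:10304823-10305072, plus strand (ADM) and chr2:46297157-46297406, plus strand (EPAS1), and each holds 1 core. Among the 65 member promoters 40 (61.5%) held ACGTG or GCGTG in this window, against 43.2% of all 35116 promoters in the table. ACGTG was in 35.4% of member promoters and in 18.5% of all, and GCGTG was in 36.9% and 32.2%. Either core was in 52.8% of the 36 enzyme promoters and in 80% of the 15 promoters of other HIF targets. A match is a stretch of letters and not a measured binding site. Among the members matched, 13 have more than 1 promoter in the table, and the percentages count each promoter of such a gene. They are therefore not shares of genes, and the comparison set was not limited to expressed genes.

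The labels were checked on expressed genes and markers. TSC22D4 was at 7.98 RPKM (reads scaled to gene length and library depth) in the control, 64.9 RPKM in the wild-type line and 51.1 RPKM in the S264A line. These reads do not separate the endogenous gene from the introduced one. HRAS was at 23.9, 27.8 and 22.4 RPKM. All 9 keratinocyte markers, among them KRT5, KRT14 and TP63, were at or above 1 RPKM in every library, while none of the fibroblast, melanocyte, immune and endothelial markers found in the table reached it. The simple-epithelial keratin genes KRT8 and KRT18 summed to 227 RPKM in the control, 493 RPKM with wild type and 230 RPKM with S264A, and their part in the results was not tested. Library depth was 32055052, 12733479 and 14022885 reads in the same order. With 1 library per line no p-value was possible, and the spread between cultures is unknown. In whole cultures, fewer cells with a transcript and less of it per cell cannot be told apart. Ratios of RPKM below carry exact 95% counting intervals in parentheses, which cover counting error only. The choice of scaling matters for small differences. Setting libraries to the same upper quartile of RPKM multiplied every ratio of wild type to control by 0.833, of S264A to control by 0.868 and of S264A to wild type by 1.04. It moved the median log2 difference of all genes from -0.01 to -0.22 and from 0.02 to -0.15 in the first pair of comparisons. Setting libraries to the same sum of RPKM multiplied the ratios by 0.895, 0.970 and 1.08, and moved the median of all genes to -0.14 for wild type against control and to 0.115 for S264A against wild type.

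**Figure D1:**
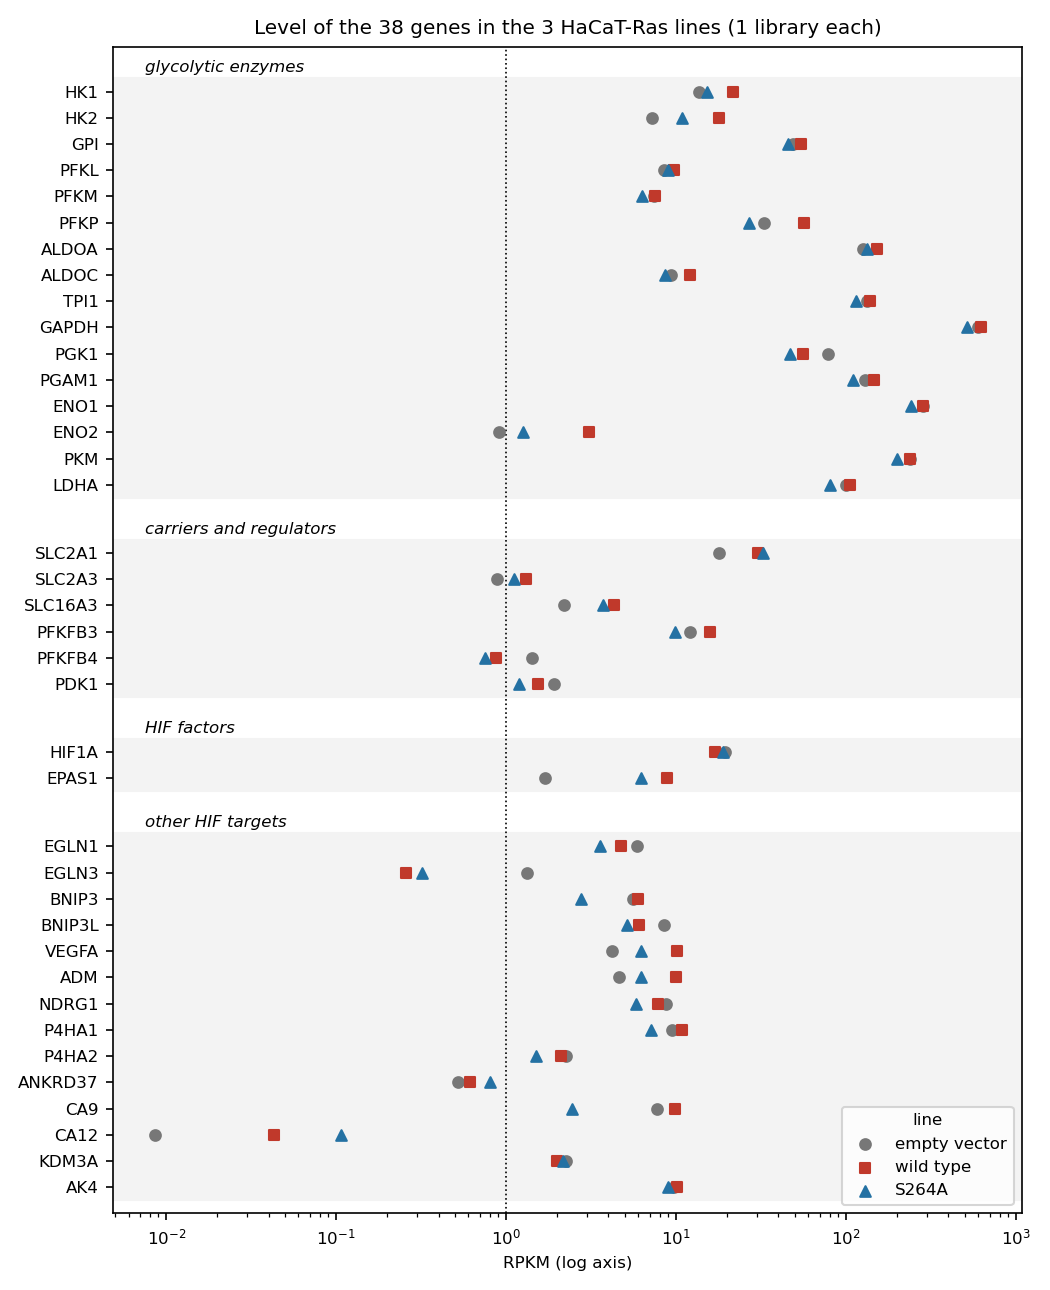
RPKM (log axis) of each of the 38 genes in the control with empty vector (circles), wild-type THG-1 (squares) and S264A (triangles), 1 library each, with a dotted line at 1 RPKM. The glycolytic enzymes reach 619 RPKM (GAPDH), the other HIF targets stay at or below 10.8 RPKM, and EPAS1 and EGLN3 stand far from the control in both THG-1 lines.

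The gene of HIF-2 alpha was higher with both forms of THG-1, and that of HIF-1 alpha differed much less. EPAS1 was at 1.68 RPKM in the control, 8.88 RPKM with wild type and 6.21 RPKM with S264A. It was 5.27-fold above the control with wild type (4.67 to 5.96) and 3.68-fold above it with S264A (3.24 to 4.19), the highest ratio to the control in both THG-1 lines among members at 1 RPKM or more. HIF1A was at 19.3, 16.9 and 18.8 RPKM in control, wild type and S264A, the sequence kept for all triplets of values below. Its ratio to the control was 0.876 (0.817 to 0.938) with wild type and 0.977 (0.916 to 1.04) with S264A. In the control EPAS1 made up 8.03% (7.28% to 8.84%) of the summed RPKM of both genes, with wild type 34.5% (32.4% to 36.5%) and with S264A 24.8% (23.0% to 26.6%). A share within a library does not move with the scaling of that library, and these intervals do not overlap.

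Genes for the entry of glucose and its first phosphorylation were higher in the wild-type line, and SLC2A1 and HK2 also in S264A. SLC2A1, which encodes the main glucose carrier GLUT1 of epidermis, was at 18.0 RPKM in the control, 30.5 RPKM with wild type and 32.6 RPKM with S264A. Both THG-1 lines lay above the control, by 1.69-fold (1.59 to 1.81) and 1.81-fold (1.71 to 1.92), and close to each other. The related carrier gene SLC2A3 was low, at 0.886, 1.31 and 1.11 RPKM. HK2, the hexokinase gene known as inducible by growth factors and HIF, was at 7.18 RPKM in the control, 18.0 RPKM with wild type and 10.9 RPKM with S264A. Its ratio to the control was 2.50 (2.32 to 2.70) with wild type and 1.52 (1.39 to 1.65) with S264A. HK1, the constitutive hexokinase gene, was at 13.6, 21.7 and 15.2 RPKM. It was 1.59-fold above the control with wild type (1.498 to 1.69), and its ratio of 1.12 with S264A (1.04 to 1.19) went below 1 with upper-quartile scaling. HK2 therefore made up 34.5% (33.0% to 36.0%) of the summed RPKM of HK1 and HK2 in the control, 45.3% (43.5% to 47.1%) with wild type and 41.7% (39.6% to 43.8%) with S264A.

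The phosphofructokinase step differed by paralog. PFKP, which encodes the platelet type, was at 32.9 RPKM in the control, 56.9 RPKM with wild type and 26.7 RPKM with S264A. Wild type was 1.73-fold above the control (1.66 to 1.81), while S264A was below it at a ratio of 0.811 (0.768 to 0.856). S264A thus stood at 0.469 times (0.443 to 0.496) the wild-type level, a difference of -1.07 in log2 of RPKM + 1 and so past 2-fold on the scale used for calls. The liver-type gene PFKL was at 8.52, 9.78 and 9.004 RPKM and the muscle-type gene PFKM at 7.40, 7.504 and 6.29 RPKM. Both differed far less between lines than PFKP, which made up 67.4% (66.5% to 68.3%) of the summed RPKM of the 3 genes in the control, 76.7% (75.7% to 77.7%) with wild type and 63.6% (62.0% to 65.1%) with S264A.

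PFKFB3 and PFKFB4 encode the enzymes that set the level of fructose-2,6-bisphosphate, the activator of phosphofructokinase. PFKFB3 was at 12.02 RPKM in the control, 15.8 RPKM with wild type and 9.87 RPKM with S264A, highest with wild type and lowest with S264A. The ratio of S264A to wild type was 0.626 (0.570 to 0.687). PFKFB4 was at 1.41 RPKM in the control and below 1 RPKM in both THG-1 lines, at 0.868 and 0.753 RPKM. Its ratio to the control was 0.614 (0.464 to 0.802) with wild type and 0.533 (0.400 to 0.700) with S264A. PDK1, which encodes a kinase of pyruvate dehydrogenase, was at 1.91, 1.54 and 1.18 RPKM, lowest with S264A at 0.620 times the control (0.537 to 0.713).

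A set of 7 abundant enzyme genes, put together by this pattern, was near the control with wild-type THG-1 and slightly below it with S264A. GAPDH was at 601, 619 and 517 RPKM in control, wild type and S264A. ENO1, the main enolase gene, was at 283, 283 and 243 RPKM. PKM, the pyruvate kinase gene, was at 238, 238 and 199 RPKM. In each of these the S264A library was the lowest, and the ratio of wild type to control lay between 0.998 and 1.03 in RPKM as deposited. LDHA, which encodes the lactate dehydrogenase A subunit, was at 99.9, 105 and 80.7 RPKM. TPI1, the triosephosphate isomerase gene, was at 132, 138 and 114 RPKM, and PGAM1, the phosphoglycerate mutase gene, at 130, 147 and 110 RPKM. GPI, the glucose-6-phosphate isomerase gene, was at 48.9, 54.5 and 45.6 RPKM. For these 7 genes the ratio of S264A to the control lay between 0.808 for LDHA and 0.933 for GPI and was below 1 under every scaling. The ratio of wild type to control of all of these genes except ENO1, between 1.00 for PKM and 1.13 for PGAM1, went below 1 with upper-quartile scaling. ENO1 stood at 0.998 (0.979 to 1.02) and stayed below 1.

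PGK1 and ENO2 departed from the other enzymes. PGK1, which encodes phosphoglycerate kinase, was at 78.6 RPKM in the control, 55.5 RPKM with wild type and 46.9 RPKM with S264A. It was below the control in both THG-1 lines, at ratios of 0.706 (0.682 to 0.731) and 0.597 (0.576 to 0.619), the lowest of the 16 enzymes in both comparisons. ENO2, which encodes the gamma enolase of neurons and is also a HIF target, was at 0.904, 3.06 and 1.25 RPKM. Wild type was 3.39-fold above the control (2.67 to 4.31), from 124 and 167 reads. Although its level was low, ENO2 went from 0.318% (0.265% to 0.379%) of the summed RPKM of ENO1 and ENO2 in the control to 1.07% (0.916% to 1.25%) with wild type, and was at 0.512% (0.403% to 0.642%) with S264A. The aldolase genes showed no such shift in share. ALDOA was at 126, 152 and 132 RPKM and ALDOC at 9.39, 12.02 and 8.57 RPKM, and ALDOA stayed between 92.7% and 93.9% of their sum. ALDOA was 1.205-fold above the control with wild type (1.18 to 1.23), under every scaling. With S264A its ratio was 1.04 (1.02 to 1.07), and its direction changed with the scaling. For ALDOC the ratios were 1.28 (1.14 to 1.44) and 0.913 (0.805 to 1.03). SLC16A3, which encodes the lactate exporter MCT4, was at 2.20, 4.29 and 3.71 RPKM, higher in both THG-1 lines by 1.95-fold (1.68 to 2.25) and 1.68-fold (1.45 to 1.95).

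The prolyl hydroxylase genes among the members, EGLN3 and EGLN1, were lower in both THG-1 lines, while their paralog EGLN2, which is not a member, was not. EGLN2 was at 3.44, 4.23 and 3.58 RPKM, which is 1.23 (1.08 to 1.40) and 1.04 (0.911 to 1.19) times the control. EGLN3, which encodes the hydroxylase PHD3, was at 1.34 RPKM in the control, 0.256 RPKM with wild type and 0.320 RPKM with S264A, from 315, 24 and 33 reads. Its ratio to the control was 0.192 (0.121 to 0.291) with wild type and 0.239 (0.162 to 0.343) with S264A. EGLN1, which encodes the main sensor PHD2, was at 5.90, 4.76 and 3.55 RPKM. Its ratios to the control were 0.806 (0.722 to 0.898) and 0.602 (0.535 to 0.677). Because EGLN3 was low, its differences of -0.90 and -0.82 in log2 of RPKM + 1 missed a 2-fold rule that its RPKM ratios pass. EGLN3 made up 18.5% (16.6% to 20.4%) of the summed RPKM of EGLN1 and EGLN3 in the control, 5.11% (3.30% to 7.51%) with wild type and 8.26% (5.75% to 11.4%) with S264A.

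Of the 38 members, CA9 had the ratio between the THG-1 forms farthest from 1. It is the gene of the cell-surface carbonic anhydrase IX, a widely used marker of HIF-1 activity. CA9 was at 7.75 RPKM in the control, 9.83 RPKM with wild type and 2.43 RPKM with S264A, from 415, 209 and 57 reads. S264A was lowest, at 0.314 times the control (0.234 to 0.415) and 0.248 times wild type (0.181 to 0.333), while wild type was 1.27-fold above the control (1.07 to 1.501). The related gene CA12 was barely detected, at 0.00853, 0.0430 and 0.107 RPKM from 2, 4 and 11 reads. BNIP3, whose product directs mitochondria to autophagy, was also lowest with S264A. It was at 5.60, 5.95 and 2.77 RPKM, and the S264A line stood at 0.495 times the control (0.429 to 0.568) and 0.465 times wild type (0.397 to 0.544). BNIP3L, which encodes the related protein NIX, was at 8.47, 6.05 and 5.12 RPKM, and so was below the control in both THG-1 lines, at ratios of 0.714 (0.630 to 0.808) and 0.604 (0.531 to 0.685).

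VEGFA and ADM were higher in both THG-1 lines. VEGFA, which encodes the vascular endothelial growth factor, was at 4.22 RPKM in the control, 10.1 RPKM with wild type and 6.23 RPKM with S264A. It was 2.40-fold above the control with wild type (2.25 to 2.56) and 1.48-fold with S264A (1.37 to 1.59). ADM, which encodes the vasodilator peptide adrenomedullin, was at 4.59, 10.03 and 6.19 RPKM. Its ratios to the control were 2.18 (1.89 to 2.53) and 1.35 (1.14 to 1.59), so that S264A stood between the control and wild type for both genes. The ratio of S264A to wild type was 0.614 (0.572 to 0.660) for VEGFA and 0.618 (0.521 to 0.731) for ADM.

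The remaining targets differed less. NDRG1, a stress-responsive gene, was at 8.78, 7.80 and 5.82 RPKM. P4HA1 and P4HA2, which encode the catalytic subunits of collagen prolyl 4-hydroxylase, were at 9.43, 10.8 and 7.10 RPKM and at 2.25, 2.11 and 1.49 RPKM. All 3 were lowest in S264A, at 0.663 (0.612 to 0.718), 0.752 (0.661 to 0.855) and 0.664 (0.559 to 0.786) times the control. AK4, which encodes a mitochondrial adenylate kinase, was at 9.72, 10.1 and 8.97 RPKM, and KDM3A, which encodes an H3K9 demethylase, at 2.26, 1.99 and 2.16 RPKM. The ratios of AK4 and KDM3A stayed between 0.879 and 1.08 in the 3 comparisons. ANKRD37 was low, at 0.520, 0.609 and 0.802 RPKM from 43, 20 and 29 reads, and the intervals of its ratios all spanned 1.

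**Figure D2:**
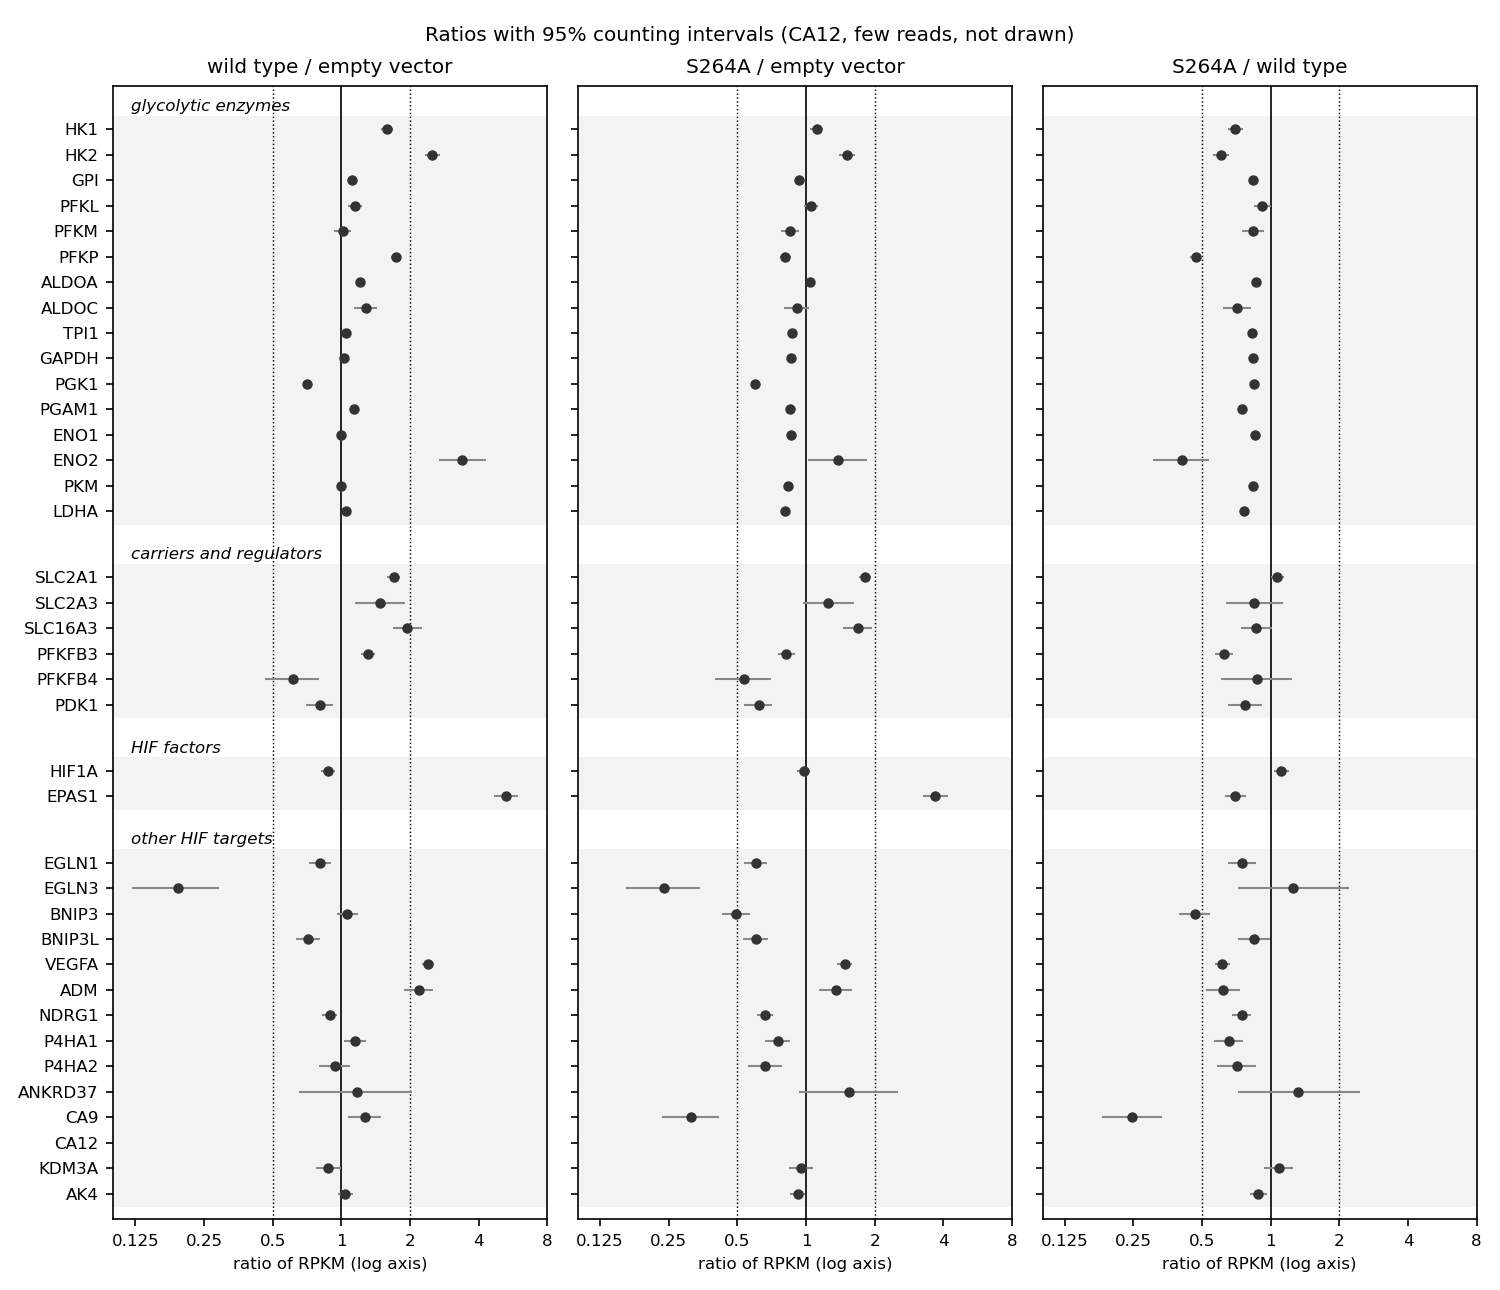
Ratio of RPKM (log axis) for each gene in wild type over control, S264A over control and S264A over wild type, with bars for 95% counting intervals, a solid line at 1 and dotted lines at 0.5 and 2 (CA12 is not drawn). All 16 enzymes lie left of 1 in the last panel, and CA9 stands farthest left there at 0.248.

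The first comparison asks how HRas-expressing keratinocytes with added wild-type THG-1 differ from the control. Higher genes outnumbered lower ones among the members, and EPAS1, HK2, ENO2 and VEGFA passed a 2-fold difference in log2 of RPKM + 1. These were 4 of the 36 members that reached 1 RPKM in the control or in wild type, and 0 members were at least 2-fold lower, against 4.53% higher and 1.54% lower among all 11993 genes. With upper-quartile scaling 1 member, EPAS1, passed. By any amount, 27 of 38 members were above the control and 11 below it, against 49.5% and 50.5% of all genes, and with upper-quartile scaling 15 were above and 23 below, where 71.3% of all genes were below. At 1.5-fold, 9 members were higher (ADM, HK1, PFKP, SLC16A3 and SLC2A1 besides these) and 1 was lower (EGLN3), against 11.0% and 6.72% of all genes. The median log2 difference was 0.17 for the 16 enzymes, 0.33 for the 6 carriers and regulators and -0.005 for the 12 other HIF targets compared, beside -0.01 for all genes. The enzyme median turned to -0.09 with upper-quartile scaling, against -0.22 for all genes. Both HIF target and glycolytic lists thus held genes that differed in opposite directions, from 0.192 for EGLN3 to 2.40 for VEGFA among targets with at least 20 reads per library, and from 0.706 for PGK1 to 3.39 for ENO2 among enzymes.

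The second comparison sets S264A against the control, and asks how cells with the serine-to-alanine form differ from cells without added THG-1. EPAS1 was the only member at least 2-fold higher and CA9 the only one at least 2-fold lower, 1 of 36 in each direction, against 2.99% and 0.824% of 12010 genes. At 1.5-fold, EPAS1 and SLC2A1 were higher (8.56% of all genes), and 6 members were lower, namely BNIP3, BNIP3L, CA9, EGLN1, EGLN3 and PGK1 (3.97% of all genes). Of these 6, 5 belong to the other HIF targets. The median of the 12 other HIF targets compared was -0.45 and that of the 16 enzymes -0.21, beside 0.02 for all genes. The enzymes stood 0.244 above the targets, a gap of 0.085 with a pseudocount of 5 and 0.360 with one of 0.1. Counting any difference in RPKM, 25 of 38 members were below the control (47.8% of all genes) and 13 above it (52.2%), and 11 of the 25 were enzymes and 10 other HIF targets. With upper-quartile scaling 28 were below, where 69.7% of all genes were.

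The third comparison sets the serine-to-alanine form against wild type. PFKP and CA9 passed the 2-fold rule downwards, 2 of the 34 members compared, and 0 passed it upwards, against 2.23% lower and 1.55% higher of 12069 genes. PFKP missed the rule in the authors' normalised columns and with scaling to an equal sum. At 1.5-fold 8 members were lower (ADM, BNIP3, ENO2, HK2, PFKFB3 and VEGFA besides these) and 0 higher, against 7.13% and 6.65% of all genes. All 16 enzymes were below wild type, between 0.408 for ENO2 and 0.920 for PFKL, and the interval of 15 of them was below 1, where 47.7% of all genes were lower by any amount. The 16 remained below wild type with upper-quartile and with equal-sum scaling. In the authors' normalised columns 15 did, and GAPDH had the same value in both lines. The median of the enzymes was -0.27 and that of the 11 other HIF targets compared -0.37, beside 0.02 for all genes. SLC2A1, HIF1A, EGLN3, ANKRD37, CA12 and KDM3A were the 6 members with a higher value in S264A than in wild type (52.3% of all genes), and the interval excluded 1 for SLC2A1 (1.0006 to 1.14) and HIF1A (1.03 to 1.21).

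**Figure D3:**
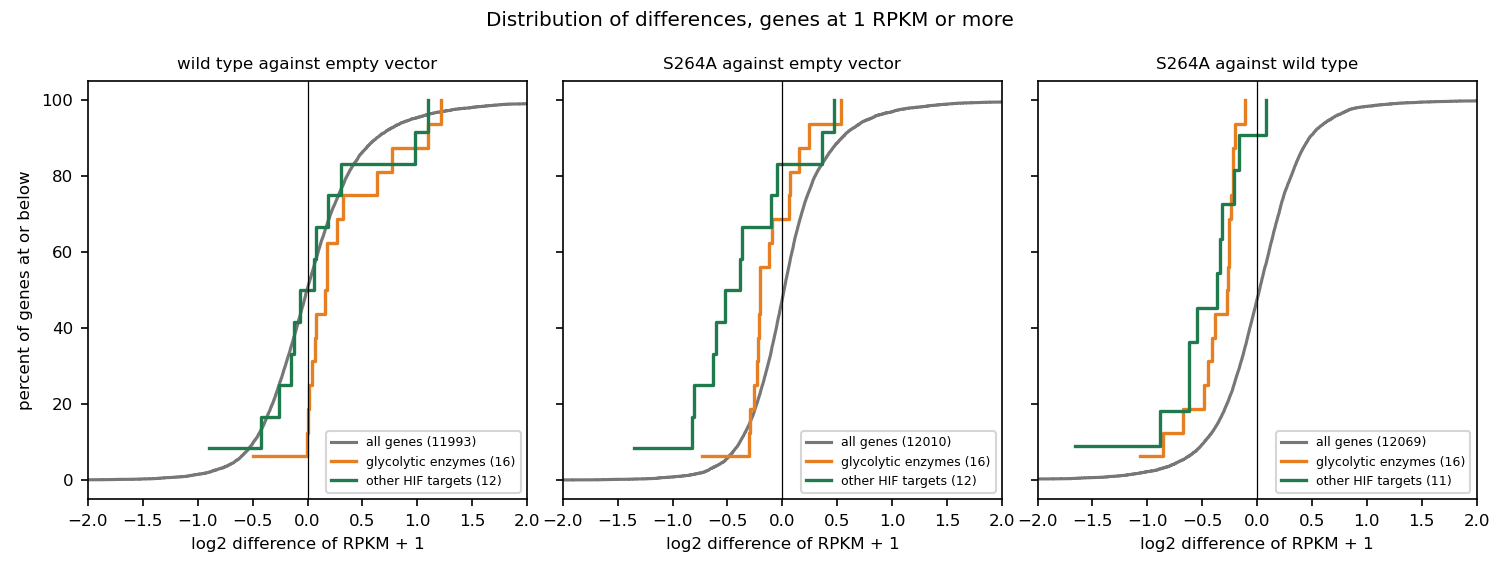
Cumulative percent of genes (vertical axis) against the log2 difference of RPKM + 1 (horizontal axis) for all genes at 1 RPKM or more, the glycolytic enzymes and the other HIF targets, in the 3 comparisons. In the comparison of S264A with the control the HIF targets have a median of -0.45 and the enzymes of -0.21, left of the median of 0.02 of all genes.

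The order of the 3 lines summarises these values. S264A held the lowest RPKM for 22 of the 38 members, 11 of them among the 16 enzymes and 8 among the 14 other HIF targets, where 25.9% of the 12379 genes at or above 1 RPKM in any library were lowest in S264A. With upper-quartile scaling it was 25 members against 31.3% of genes, with equal-sum scaling 22 against 22.2%, and in the authors' normalised columns 21 against 29.6%. Wild type held the highest RPKM for 24 members (35.3% of genes), for 13 with upper-quartile scaling (21.4% of genes), 16 with equal-sum scaling (23.7%) and 17 in the normalised columns (32.8%). The control was lowest for 13 members (35.4% of genes) and highest for 11 (33.5%). Wild type was lowest for 3 (38.6%) and S264A highest for 3 (31.2%). The order uses the same 3 libraries as the comparisons above and adds no evidence to them. Summed over the 16 enzymes, RPKM came to 1817, 1922 and 1566 in control, wild type and S264A, or 0.685%, 0.648% and 0.572% of all RPKM. The 14 other HIF targets summed to 70.85, 80.6 and 53.1 RPKM, or 0.0267%, 0.0272% and 0.0194%. Expressed as a share of all RPKM, the enzymes thus were highest in the control, whereas the HIF targets were nearly level between control and wild type, and both were lowest in S264A.

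**Figure D4:**
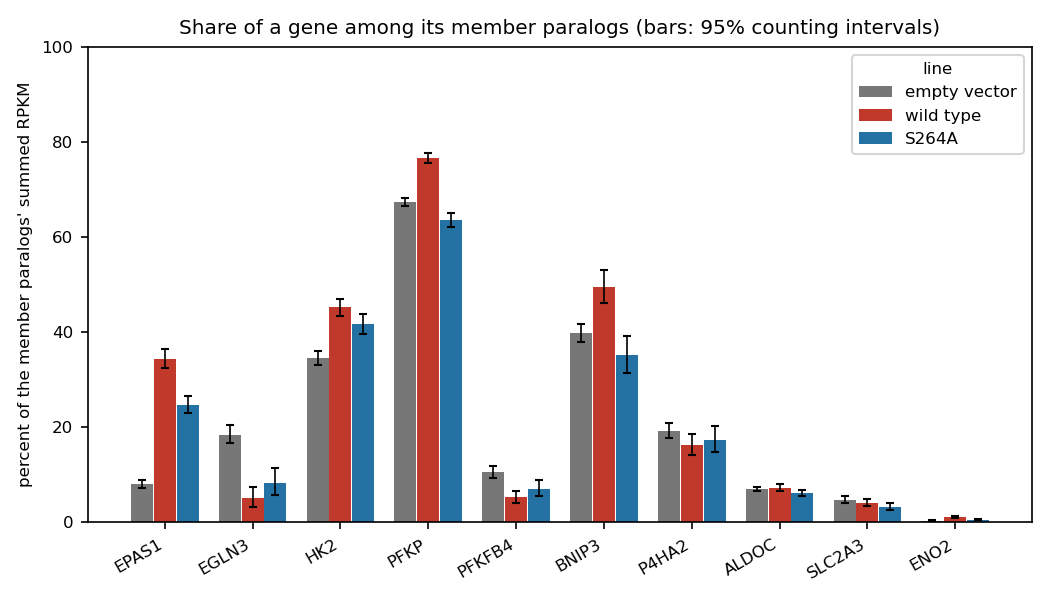
Percent of the summed RPKM of the paralogs among the 38 members that came from the named gene in control, wild type and S264A, with bars for 95% counting intervals. EPAS1 goes from 8.03% in the control to 34.5% and 24.8%, and EGLN3 from 18.5% to 5.11% and 8.26%, while the intervals of P4HA2 and of ALDOC overlap among the 3 lines.

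Shares were taken among the paralogs that are members, so they are not shares of whole gene families. P4HA2 held 19.3% (17.7% to 20.9%) of the P4HA1 and P4HA2 sum in the control, 16.3% (14.1% to 18.6%) with wild type and 17.4% (14.8% to 20.2%) with S264A, with overlapping intervals. SLC2A3 held 4.70% (4.04% to 5.44%), 4.13% (3.38% to 5.001%) and 3.30% (2.68% to 4.02%) of the sum of both glucose carrier genes, and the intervals of control and S264A did not overlap. BNIP3 held 39.8% (37.8% to 41.8%) of the BNIP3 and BNIP3L sum in the control, 49.6% (46.0% to 53.2%) with wild type and 35.1% (31.3% to 39.1%) with S264A. PFKFB4 lay outside the interval of the control in both THG-1 lines, from 10.5% (9.38% to 11.8%) of the PFKFB3 and PFKFB4 sum to 5.22% (4.07% to 6.57%) and 7.09% (5.51% to 8.96%). PFKFB2, which is not a member and not in that sum, was at 2.98, 3.57 and 4.88 RPKM, above PFKFB4 in every line and 1.63-fold above the control with S264A (1.48 to 1.81). In the authors' normalised columns every one of these shares stayed within its counting interval.

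Other genes of the pathways were listed by function. Of 35 further genes of glycolysis and pyruvate use in the table, 20 could be compared with the control. In log2 of RPKM + 1, with wild type 0 of these passed 2-fold in either direction. With S264A 1 did, FBP1, which encodes the gluconeogenic fructose-1,6-bisphosphatase. Of all genes 4.53% were higher and 1.54% lower with wild type, and 2.99% and 0.824% with S264A. FBP1 was at 4.26 RPKM in the control, 4.05 RPKM with wild type and 14.5 RPKM with S264A, which was 3.41-fold above the control (2.87 to 4.05) and 3.59-fold above wild type (2.83 to 4.60). The median of this list was 0.09 with wild type and 0.08 with S264A, against -0.01 and 0.02 for all genes. PDK3, a paralog of PDK1, was at 2.06, 0.554 and 0.556 RPKM, lower in both THG-1 lines. Its ratios to the control were 0.269 (0.187 to 0.376) and 0.270 (0.191 to 0.372). They pass 2-fold in RPKM, although PDK3 missed the rule in log2 of RPKM + 1. PDK2 was at 1.42, 1.78 and 2.09 RPKM, which is 1.25 (1.002 to 1.56) and 1.48 (1.20 to 1.81) times the control. LDHB, which encodes the other main subunit of lactate dehydrogenase, was at 27.8, 20.2 and 19.3 RPKM. Among the 10 genes of oxygen sensing compared, 0 passed 2-fold in any comparison. At most 4.53% of all genes did in either direction. At 1.5-fold RBX1 alone passed, lower with S264A than in the control (3.97% of all genes), at a ratio of 0.548 (0.457 to 0.655). ARNT was at 3.91, 2.74 and 3.51 RPKM and VHL at 4.80, 4.70 and 4.98 RPKM. The ratio of ARNT to the control was 0.700 (0.602 to 0.812) with wild type and 0.899 (0.788 to 1.02) with S264A.

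Further HIF targets past 2-fold were few and lay in both directions. Of 25 compared between wild type and control, ANGPTL4 was among those at least 2-fold higher, and 0 were at least 2-fold lower. Of all genes 4.53% were higher and 1.54% lower by this rule. ANGPTL4, which encodes a secreted inhibitor of lipoprotein lipase, was at 2.51, 7.75 and 2.59 RPKM, high in wild type and near the control in S264A. Of 23 compared between S264A and control, 2 were at least 2-fold higher, BHLHE41 among them, and 1, STC1, was at least 2-fold lower. The shares of all genes were 2.99% and 0.824%. BHLHE41, which encodes the repressor DEC2, was at 1.71, 1.95 and 6.32 RPKM. STC1, which encodes the hormone stanniocalcin-1, was at 1.83, 2.10 and 0.327 RPKM, and with S264A at 0.178 times the control (0.105 to 0.284). With wild type its ratio to the control was 1.15 (0.907 to 1.44). Against wild type, S264A had 2 of 25 compared at least 2-fold lower, ANGPTL4 and STC1, and 1 higher, BHLHE41. Here 2.23% of all genes were lower and 1.55% higher.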

How the data were processed

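The authors deposited 1 table with 57773 rows named by gene symbol and, for each of the 3 libraries, RPKM and, per the file headers, normalised expression values. The normalised RPKM columns of the authors are quantile-normalised, as tested on their sorted values. The build was hg19, per the submitters' processing notes. Aligner, counter, annotation, library selection and strand were not given in the sources used here. Positions of genes are not printed.

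RPKM as deposited were used. The row with the highest mean stood for a symbol with several rows. Differences are log2 of RPKM with a pseudocount of 1, which understates those of low genes, over genes that reached 1 RPKM in either library compared, and 2-fold was the rule for a call (1.5-fold beside it). Depth came from genes with 1 exon in GENCODE release 29, and whole reads from the lengths at which all 3 values were whole within 0.001 reads. For 20 members the GENCODE length fitted, for 18 the nearest fitting length was used. Reads gave exact Clopper-Pearson intervals, and no count test was run. Reads are not independent molecules. Scripts were tested on simulated data (Python 3.11.15, scipy 1.17.1). Members, groups, lists and the rule for named genes (all members, and listed pathway genes past 2-fold) were chosen with earlier results of these data known. LDHB, PDK2, PDK3, PFKFB2, EGLN2, ARNT, VHL, RBX1, TALDO1, DDIT4, MIR210HG, ERO1L, HMOX1, PLOD2 and SLC2A12 were named after their values were seen. The 7 promoters shown were chosen so too. Alternatives were other pseudocounts, filters, scalings and a 1.5-fold rule. A further listed gene past 2-fold is not reported here.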

Additional observations from a re-analysis of the deposited data

How the results depend on the processing

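No paired analysis was possible because each line has 1 library and the labels give no shared replicate numbers, and for the same reason no library could be left out. All values are log2 of RPKM + 1 unless another pseudocount is named, and where a value moved the cause was not tested beyond what its setting changes. For wild type against control, the 4 members called higher became 1 with a pseudocount of 5, 1 with upper-quartile scaling, 2 with equal-sum scaling and 9 at 1.5-fold, and the 0 called lower became 1 with a pseudocount of 0.1 and 1 at 1.5-fold. The enzyme median of 0.167 turned to -0.003 in the normalised columns and -0.093 with upper-quartile scaling, and was 0.010 with equal-sum scaling. The median of the other HIF targets, -0.005, turned to 0.006 with a pseudocount of 5, 0.052 with no filter and 0.075 with a filter at 5 RPKM, and was -0.211 with upper-quartile scaling. For S264A against control, the member called higher was lost (0) with a pseudocount of 5 and became 2 at 1.5-fold. The member called lower became 2 with a pseudocount of 0.1, 0 with one of 5 and 6 at 1.5-fold. The enzyme median of -0.206 was -0.395 with upper-quartile scaling, and that of the other HIF targets, -0.451, was -0.253 with a pseudocount of 5. The median of carriers and regulators, -0.049, turned to 0.008 with a pseudocount of 0.1 and 0.281 with a filter at 5 RPKM, and was -0.445 with upper-quartile scaling. For S264A against wild type, the 2 members called lower became 4 with a pseudocount of 0.1, 0 with one of 5, 1 in the normalised columns, 1 with equal-sum scaling and 8 at 1.5-fold. The enzyme median of -0.266 was -0.180 in the normalised columns, -0.207 with upper-quartile and -0.151 with equal-sum scaling, and that of the other HIF targets, -0.368, was -0.583 with a filter at 5 RPKM. Enzymes minus other HIF targets, 0.102, turned to -0.018 with a pseudocount of 5 and was 0.322 with a filter at 5 RPKM. Depth limits CA12, ANKRD37 and EGLN3 most.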

Other observations

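The pentose phosphate pathway, which branches from glucose-6-phosphate and supplies NADPH and ribose, was above the control on the whole with both THG-1 forms. All 7 of its listed genes could be compared. At most 4.53% of all genes passed 2-fold in either direction in any comparison, and 0 of the 7 did. Their median log2 difference was 0.24 with wild type and 0.16 with S264A, beside -0.01 and 0.02 for all genes. TALDO1, which encodes transaldolase, was at 38.3, 60.7 and 57.2 RPKM in control, wild type and S264A. It was 1.59-fold (1.504 to 1.67) and 1.49-fold (1.42 to 1.57) above the control, and above it in RPKM under upper-quartile and equal-sum scaling too.

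Of the further HIF targets, DDIT4 and MIR210HG were lower and ERO1L was higher in both THG-1 lines, without passing 2-fold in log2 of RPKM + 1. The list as a whole held both directions. With wild type 9 of the 25 compared were below the control (50.5% of all genes), with a median of 0.096. With S264A 14 of the 23 compared were below it (47.8% of all genes), with a median of -0.145. DDIT4, which encodes the mTORC1 inhibitor REDD1, was at 131, 88.5 and 70.8 RPKM. Its ratios to the control were 0.673 (0.643 to 0.705) and 0.539 (0.513 to 0.565). MIR210HG, the host transcript of the hypoxia-induced miR-210, was at 3.97, 2.00 and 2.09 RPKM, which is 0.503 (0.374 to 0.668) and 0.527 (0.399 to 0.688) times the control. ERO1L was at 8.61, 12.2 and 11.5 RPKM, which is 1.42 (1.32 to 1.52) and 1.34 (1.24 to 1.44) times the control.

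Several enzyme genes have processed pseudogenes, and reads can be shared with them. The pseudogene rows of LDHA summed to between 1.18% and 1.53% of the reads of LDHA in the 3 libraries. For ALDOA, TPI1, GAPDH, PGK1, PGAM1, ENO1 and PKM they came to at most 0.352%. How reads that fit more than 1 place were counted was not given in the sources used here.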
